A study of Homo sapiens with 10 samples.

Results

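Differentiating neurospheres treated with diethyl phthalate (DEP) were set against neurospheres treated with DPP at the same dose, across all genes of the count table. The members were the 4 libraries labelled DEP and DPP, of 10 libraries in all, and 19465 genes of 46427 in the table held enough counts to be tested. The cells of all groups were ReNcell VM, a human neural progenitor line made immortal, grown as neurospheres and then plated on laminin in differentiation medium with the compounds for 6 days. The groups were DEP at 100 µM (n = 2), DPP at 100 µM (n = 2), DProP at 100 µM (n = 2), a mixture labelled Mix at 100 µM (n = 2) and a vehicle control with 0.1% DMSO (n = 2). The study's design text describes the other compounds as linear dialkyl phthalates whose carbon number differs from that of DEP, and since DPP is not spelled out there its structure is left out. A library held the RNA of 6 pooled neurospheres of 1 cell line. Whether replicates were grown as separate cultures is not stated, so p-values measure the spread between libraries alone, which may be technical.

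Phthalate diesters are solvents and plasticisers found in personal care and plastic products, and the study asked whether short-chain members disturb the development of neural cells. In differentiation medium a neural progenitor leaves the cell cycle and turns toward neurons, astrocytes or oligodendrocytes. Such cells depend on cholesterol and lipid synthesis for membranes, and they answer metabolic, oxidative and amino acid stress through transcription factors such as ATF4 and NFE2L2 (NRF2).

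The 4 libraries held between 64635092 and 70127862 counts, with 23180 to 23375 genes detected in each. A share of 0.342% to 0.394% of their counts lay in the nuclear long noncoding RNA MALAT1, whereas the vehicle libraries held 1.25% and 0.946%. Levels are given in CPM, counts scaled to library size with TMM factors, fold changes on the log2 scale as DEP minus DPP with the standard error, and p-values from edgeR's quasi-likelihood test with Benjamini-Hochberg adjustment over all genes tested, with 0.05 as the threshold. The median of the log2 fold change over all tested genes was 0.0023. The median 95% interval reached 0.26 to each side of the estimate. The sums over marker lists that follow cover every listed gene and are CPM without TMM factors. Progenitor markers summed to 10250 CPM in each DEP library, against 10510 and 10380 CPM in DPP libraries. The 10 microglia and leukocyte markers summed to 7.69 and 6.64 CPM in DEP libraries and 7.63 and 7.38 CPM in DPP libraries, with PTPRC, AIF1, TYROBP, C1QA and C1QB at 0 in these 4 libraries and CD68 the one member with enough counts to be tested. The epithelial markers summed to 1.58 to 1.81 CPM, with 5 of 10 at 0. Endothelial markers summed to 26.1 and 27.5 CPM in DEP libraries and 18.8 and 10.23 CPM in DPP libraries, with PECAM1 and ERG at 0. Most of this lay in CLDN5, which with TMM factors had 21.5 and 22.8 CPM in DEP libraries, against 13.5 and 6.18 CPM in DPP libraries. None of 8 tested was called, and 4 had a positive and 4 a negative fold change. The part of endothelial markers in the results was not tested.

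Neurospheres treated with DEP and DPP differed in 571 genes, 2.93% of those tested. Expression was higher in DEP for 307 genes (1.58%) and lower in DEP for 264 genes (1.36%). By list, neuron markers and cilium genes had the most members higher in DEP, and genes of cholesterol synthesis and of hypoxia and glycolysis the most members lower. The counts by list that follow stand against these shares of 1.58% and 1.36% over all genes tested. Most differences were small. The median size over the called genes was 0.57 on the log2 scale, and 97 genes higher in DEP and 40 genes lower in DEP differed at least 2-fold. Of the called genes 556 were protein coding. Both DEP libraries lay on one side of both DPP libraries for each called gene, which was also the case for 24.2% (DEP above) and 23.8% (DEP below) of all tested genes. DEP and DProP differed in 102 genes (0.524%) and DProP and DPP in 51 (0.262%), in comparisons that share libraries with the first.

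Counts of called genes depended on single libraries. Without DEP 1, 85 genes were higher and 80 lower in DEP, without DEP 2 the counts were 53 and 38, and without DPP 2 they were 75 and 70. Without DPP 1 they were 469 and 303. DESeq2 called 594 and 538 genes.

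**Figure D1:**
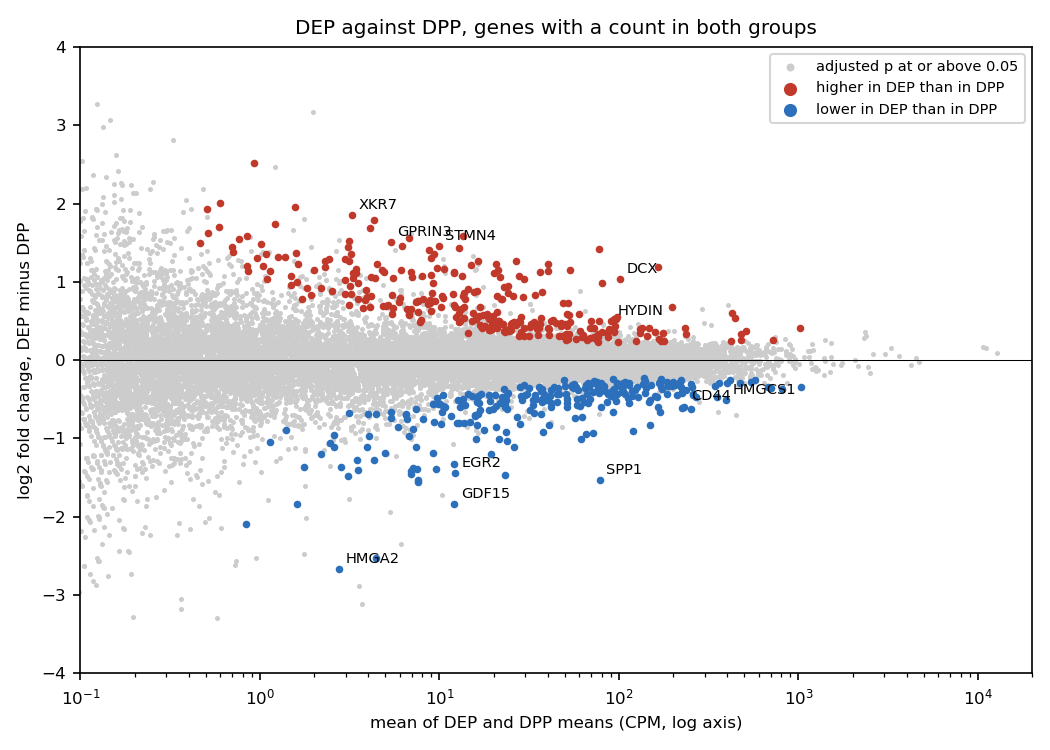
Each point is a gene with a count in both groups; the horizontal axis gives the mean of the DEP and DPP group means (CPM, log axis) and the vertical axis the log2 fold change, DEP minus DPP. The 307 genes higher in DEP (red) and the 264 lower in DEP (blue) are shown except for 17 with 1 group at 0, and the labelled HMGA2 lies lowest among the called points.

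Against vehicle, DEP changed 4601 genes (23.6%) and DPP 7049 (36.2%), with the same 2 vehicle libraries in both comparisons. The 307 genes higher in DEP than in DPP had a median log2 fold change against vehicle of -0.367 in DEP and -1.12 in DPP, where all tested genes had medians of 0.00794 in DEP and 0.0173 in DPP. The 264 genes lower in DEP than in DPP had medians of 0.115 in DEP and 0.649 in DPP. Since DEP and DPP levels chose these genes, the distance between the 2 medians is fixed by the choice. Vehicle libraries stood apart in their MALAT1 share. They also had fewer genes detected, 21603 and 21500. Mitochondrially encoded genes held 0.0255% and 0.0343% of their counts, against 0.0825% to 0.107% in DEP and DPP libraries. Their TMM factors were 0.917 and 0.915, against 1.018 to 1.024. The part of these differences in values against vehicle was not tested. The DProP libraries took no part in the contrast, although they entered the common estimate of the spread. The DProP mean lay between the DEP and DPP means for 274 of the 307 genes and for 210 of the 264. These counts are a description with no test. The genes were chosen for a gap between DEP and DPP, into which the mean of another group can fall more readily. The share over all tested genes was not computed, so the counts do not show that DProP is intermediate.

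Neuron markers differed in both directions, more of them higher in DEP. Of 29 neuron markers tested, 12 were higher and 2 lower in DEP, with a list median of 0.27. These are 41.4% and 6.9%, against 1.58% and 1.36% of all genes tested. In bulk RNA, fewer neurons and less RNA per neuron cannot be told apart. STMN4, a microtubule-destabilising stathmin of neurons, had 14.3 and 14.9 CPM in DEP libraries, against 6.32 and 4.29 CPM in DPP libraries, a log2 fold change of 1.46 ± 0.16 with an adjusted p of 0.00105. Vehicle libraries held 16.04 and 19.9 CPM, so both treated groups lay below them by group mean, DPP further. SNAP25, a SNARE protein of synaptic vesicle fusion, had 14.96 and 17.98 CPM in DEP libraries, against 8.58 and 6.62 CPM in DPP libraries (1.12 ± 0.14, adjusted p = 0.00156). INA, which encodes the neuronal intermediate filament alpha-internexin, had 60.7 and 69.4 CPM in DEP libraries, against 40.7 and 38.0 CPM in DPP libraries (0.72 ± 0.08, adjusted p = 0.0011). No DEP library overlapped a DPP library for these genes, as for each called gene. DCX, a microtubule-associated protein of migrating young neurons, had 128 and 146 CPM in DEP libraries, against 78.3 and 55.3 CPM in DPP libraries (1.04 ± 0.13, adjusted p = 0.0043), but its adjusted p was 0.13 in a fit of the 4 libraries alone. The other called members higher in DEP were the RNA-binding protein genes ELAVL2, ELAVL3 and ELAVL4, STMN2, the endosomal protein gene NSG1 and the transcription factor genes NEUROD1, NHLH1 and MYT1L, with log2 fold changes between 0.99 and 1.40. NHLH1 lost its call in 8 of 13 alternatives, ELAVL4 in 6, MYT1L in 3, and STMN2 and NEUROD1 in 2 each. ELAVL2, ELAVL3 and NSG1 kept theirs in every alternative.

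Neuron markers did not move as one. NEFL, the light neurofilament chain, ran the other way with 16.4 and 14.9 CPM in DEP libraries, against 29.6 and 34.3 CPM in DPP libraries (-1.03 ± 0.10, adjusted p = 0.0008), while vehicle libraries held 18.7 and 17.6 CPM. Its DEP libraries lay near the vehicle libraries and its DPP libraries above both. SCG2, a granin of secretory vesicles, was the other marker lower in DEP (-0.43 ± 0.09, adjusted p = 0.0273), with no call without DEP 1, DEP 2 or DPP 2. The broad neuronal cytoskeleton genes TUBB3 and MAP2 did not pass the test, with 95% intervals of 0.16 to 0.75 for TUBB3 and 0.02 to 0.28 for MAP2. The number of neuron markers higher in DEP was 9, 7, 13 and 9 without DEP 1, DEP 2, DPP 1 and DPP 2 in turn.

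Synapse and ion channel genes were called in both directions. Of 35 synapse genes, SNAP25 and the presynaptic scaffold gene BSN were higher in DEP (0.37 ± 0.08 for BSN), and the postsynaptic scaffold gene HOMER1 (-0.55 ± 0.09, adjusted p = 0.00767) and the kinase gene CAMK2A (-0.88 ± 0.17, adjusted p = 0.0176) were lower. Of 32 ion channel genes, the potassium channel genes KCNMA1 (0.68 ± 0.10) and KCNH7 (0.46 ± 0.10) were higher in DEP, and the sodium channel gene SCN9A was lower (-0.81 ± 0.15, adjusted p = 0.0158). Of these 7 calls, that of SNAP25 alone held without DEP 2 or DPP 2.

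Of the 12 largest differences in favour of DEP, that of XKR7, an XK-related membrane protein gene, came first. It had 4.23 and 6.04 CPM in DEP libraries, against 1.76 and 1.08 CPM in DPP libraries, a difference of 1.85 ± 0.24 on the log2 scale (adjusted p = 0.00178). DUSP26, a dual-specificity phosphatase of the nervous system, had 6.80 and 6.58 CPM in DEP libraries, against 2.44 and 1.42 CPM in DPP libraries (1.79 ± 0.21, adjusted p = 0.0011). P2RX3, an ATP-gated cation channel of sensory neurons, had 9.09 and 11.2 CPM in DEP libraries, against 4.16 and 2.70 CPM in DPP libraries (1.56 ± 0.19, adjusted p = 0.00143). In these 3 genes the lower DEP library was above the higher DPP library, which the naming rule asks for and which held for each called gene higher in DEP. GPRIN3 differed by 1.51 ± 0.16, and SRRM4, a neuronal splicing factor, by 1.46 ± 0.16. IQSEC3, ABCG1, TSPAN18, PAPPA, SYT4 and PAK5 completed the 12 largest, at 1.44 to 1.74. The calls for XKR7, DUSP26, P2RX3, GPRIN3, STMN4 and SRRM4 held under each alternative tried, and those of the other 6 ended without DEP 2, which for PAK5 was the one setting that ended it.

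Genes of axon guidance and migration gave a mixed picture. ROBO3, a guidance receptor for axons that cross the midline, had 235 and 225 CPM in DEP libraries, against 117 and 84.0 CPM in DPP libraries (1.20 ± 0.16, adjusted p = 0.00784). STMN2 and DPYSL5 were the other 2 called of 40 neurite and axon guidance genes, all 3 higher in DEP, and the list median was -0.04. The number higher was 1, 0, 4 and 2 without DEP 1, DEP 2, DPP 1 and DPP 2, and ROBO3 had no call without DEP 1 or DEP 2. RELN, the secreted glycoprotein that guides neuron positioning, had 9.41 and 9.65 CPM in DEP libraries, against 4.83 and 4.3 CPM in DPP libraries (1.06 ± 0.12, adjusted p = 0.00106). Of 46 migration and matrix genes tested, 5 were higher in DEP (RELN, DCX, BCAN, NCAN and VCAM1) and 10 were lower (among them SPP1, ITGA5, ITGA3, CD44, COL4A1, TIMP1, TNC, LAMC1 and CDH2), with a median of -0.09. The brain proteoglycans BCAN and NCAN thus stood on the other side from the called LAMC1, COL4A1, ITGA5 and ITGA3, while 31 of the 46 genes were not called. In a fit of the 4 libraries alone neither BCAN nor NCAN was called. Leaving out DEP 1, DEP 2 or DPP 2 reduced the 5 to 2 each time, and the 10 to 4, 3 and 5.

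SPP1, the secreted phosphoprotein osteopontin, had 39.6 and 41.1 CPM in DEP libraries, against 112 and 120.0 CPM in DPP libraries (-1.53 ± 0.16, adjusted p = 0.00169), and vehicle libraries held 19.4 and 15.97 CPM. CD44, a hyaluronan receptor that astrocyte precursors also carry, had 184 and 186 CPM in DEP libraries, against 269 and 288 CPM in DPP libraries (-0.59 ± 0.07, adjusted p = 0.00105). The DEP libraries of CD44 lay among or next to the vehicle libraries, which held 184 and 163 CPM.

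Genes of motile cilia were the list with the highest median. Of 40 cilium genes tested, 16 were higher in DEP (40%, against 1.58% of all genes tested) and none lower. The median was 0.50 on the log2 scale. Motile cilia are built from axonemal dyneins, radial spokes and tether proteins, and in the brain ependymal cells carry them. DNAH11, an axonemal dynein heavy chain, had 39.2 and 40.7 CPM in DEP libraries, against 22.3 and 16.7 CPM in DPP libraries (1.04 ± 0.12, adjusted p = 0.0011), and vehicle libraries held 55.0 and 52.4 CPM. HYDIN, a protein of the central pair of microtubules, had 110.1 and 103 CPM in DEP libraries, against 78.3 and 72.1 CPM in DPP libraries (0.50 ± 0.06, adjusted p = 0.00187). Both genes kept their call in every alternative run. Called members of other roles were the dynein chains DNAH7 and DNAH9, the radial spoke genes RSPH1 and RSPH4A, the dynein assembly factor DNAAF1, CCDC40, SPAG6, ARMC3, PIFO and the CFAP genes CFAP52, CFAP54, CFAP61, CFAP70 and CFAP100. FOXJ1, the master regulator of motile ciliogenesis, did not pass, with a 95% interval of 0.03 to 0.94. The count moved with single libraries: it was 3, 2 and 2 without DEP 1, DEP 2 and DPP 2, and 23 without DPP 1.

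**Figure D2:**
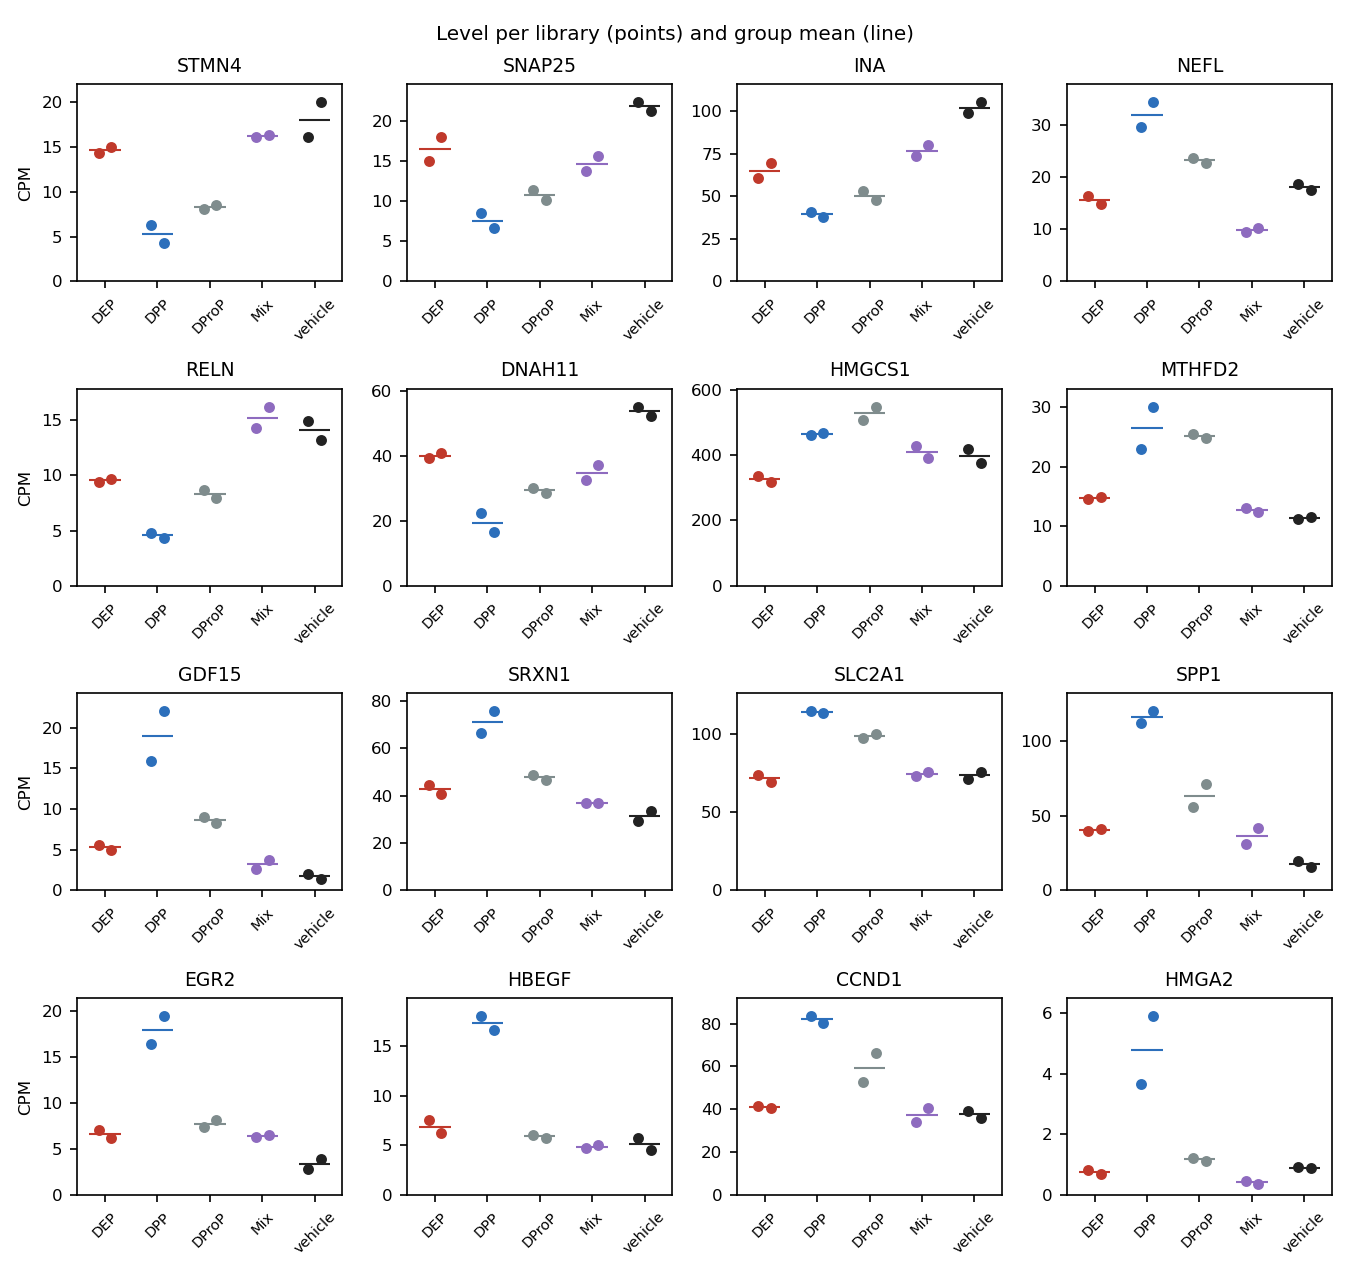
Expression of 16 genes (CPM, linear axis from 0) in each of the 2 libraries of every group (points) with the group mean (line), in the order DEP, DPP, DProP, Mix and vehicle. STMN4, SNAP25, INA, RELN and DNAH11 are higher in DEP than in DPP, and the other 11 genes are lower in DEP. The DEP and DPP libraries do not overlap, as for each called gene.

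Genes of cholesterol synthesis were lower in DEP. Of 25 genes of sterol synthesis and uptake, 12 were lower in DEP (48%, against 1.36% of all genes tested) and none higher. The median was -0.28. The pathway turns acetyl-CoA through mevalonate into lanosterol and cholesterol, and the transcription factor SREBF2 drives its genes when sterols are low. Early in it, HMGCS1, the synthase that makes HMG-CoA, had 336 and 316 CPM in DEP libraries, against 461 and 467 CPM in DPP libraries (-0.51 ± 0.07, adjusted p = 0.00274), and vehicle libraries held 417 and 375 CPM. The DPP libraries were the highest of these 3 groups and the DEP libraries the lowest. Late in it, DHCR7, which reduces 7-dehydrocholesterol to cholesterol, had 125 and 116 CPM in DEP libraries, against 186 and 163 CPM in DPP libraries (-0.54 ± 0.08, adjusted p = 0.00471). The enzyme genes ACAT2, MVD, IDI1, FDFT1, LSS and CYP51A1 and the sterol carrier STARD4 were also called, at -0.59 to -0.28. SREBF2 itself had a 95% interval of -0.12 to 0.15. The count was 6, 2, 10 and 8 without DEP 1, DEP 2, DPP 1 and DPP 2, and neither HMGCS1 nor DHCR7 had a call without DEP 2.

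The sterol exporter gene ABCG1, a target of the oxysterol receptor LXR, differed in the other direction. It had 5.09 and 7.37 CPM in DEP libraries, against 2.51 and 1.33 CPM in DPP libraries (1.69 ± 0.27, adjusted p = 0.00936), but no call without DEP 2 or in a fit of the 4 libraries alone, and vehicle libraries held 9.63 and 10.6 CPM. It was the only one called of 11 LXR and cholesterol efflux genes, of which 10 had a positive fold change. ABCA1, its relative, had 833 and 794 CPM in DEP libraries, against 642 and 681 CPM in DPP libraries, with a 95% interval of 0.14 to 0.46 and an adjusted p of 0.0515; it passed the threshold in 7 of 13 alternatives.

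Fatty acid synthesis followed the sterol genes in part. Its 23 tested genes had a median of -0.11, with 10 positive and 13 negative fold changes. FASN, the fatty acid synthase, had 735 and 671 CPM in DEP libraries, against 924 and 894 CPM in DPP libraries (-0.37 ± 0.06, adjusted p = 0.0063). With it, SCD5, ELOVL1, ELOVL6, FADS3, ME1 and LPIN1 were lower in DEP, 7 of 23 tested, and none was higher. Without DEP 1, DEP 2, DPP 1 and DPP 2 this count was 1, 0, 5 and 2, and the call of FASN ended without DEP 2. Of 35 PPAR target and fatty acid oxidation genes, the set that the nuclear receptors for fatty acids and peroxisome proliferators control, ACSL1 alone was called. This is 2.86% of the list, near the 2.93% called over all genes tested. ACSL1 had 10.2 and 12.4 CPM in DEP libraries, against 6.68 and 6.69 CPM in DPP libraries (0.75 ± 0.13, adjusted p = 0.00949 by edgeR). Its call was lost without DEP 2 or DPP 2.

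Stress response genes were lower in DEP in several families. The ATF4 genes, which supply amino acids and curb growth when translation is restrained, had 8 of 28 members lower and none higher, with a median of -0.22. These 8 are 28.6% of the list, against 1.36% of all genes tested. GDF15, a secreted stress cytokine, had 5.56 and 5.02 CPM in DEP libraries, against 15.9 and 22.0 CPM in DPP libraries (-1.84 ± 0.21, adjusted p = 0.0011), while vehicle libraries held 2.08 and 1.46 CPM. Both treated groups thus lay above vehicle, DPP far more. MTHFD2, an enzyme of mitochondrial folate metabolism, had 14.6 and 14.9 CPM in DEP libraries, against 23.1 and 30.1 CPM in DPP libraries (-0.85 ± 0.11, adjusted p = 0.00215). ASNS, asparagine synthetase, had 13.4 and 12.97 CPM in DEP libraries, against 19.6 and 21.2 CPM in DPP libraries (-0.63 ± 0.09, adjusted p = 0.00264). TRIB3, PCK2, CHAC1, ATF3 and the amino acid transporter SLC7A5 were also called, at -1.40 to -0.45, and ATF4 mRNA had a 95% interval of -0.13 to 0.12. Without DEP 1, DEP 2, DPP 1 and DPP 2 the count was 6, 2, 9 and 4, and ASNS had no call without DEP 2.

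The promoters of the called ATF4 genes are shown because their deposited levels can be set beside a known letter pattern of this family, the core of the CEBP-ATF response element. The pattern TGATGNAA was searched on both strands in the 250 bases before each transcript start that a RefSeq table lists (GRCh38.p14). The table has 35116 such windows for 27305 genes, so a gene can have more than 1, and a gene counts where any of its windows holds the pattern. It was found in 3 of the 8 called members, in 1 of 15 uncalled members with a promoter sequence, and in 3.89% of all genes in the table. A match is a letter pattern and says nothing of binding. Capitals mark the match in ATF3 (chr1:212565157-212565406, + strand), ASNS (chr7:97872409-97872658, - strand) and CHAC1 (chr15:40953221-40953470, + strand), each written 5′ to 3′ on the gene's strand. The windows of ATF3 and CHAC1 end where the annotated gene begins, and that of ASNS precedes a start inside the annotated gene, which spans chr7:97851677-97928441.
ATF3: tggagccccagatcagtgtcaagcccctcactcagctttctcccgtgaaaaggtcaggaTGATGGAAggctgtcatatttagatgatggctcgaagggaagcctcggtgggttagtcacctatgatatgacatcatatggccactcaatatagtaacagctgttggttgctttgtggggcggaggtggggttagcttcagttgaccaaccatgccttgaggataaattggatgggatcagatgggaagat
ASNS: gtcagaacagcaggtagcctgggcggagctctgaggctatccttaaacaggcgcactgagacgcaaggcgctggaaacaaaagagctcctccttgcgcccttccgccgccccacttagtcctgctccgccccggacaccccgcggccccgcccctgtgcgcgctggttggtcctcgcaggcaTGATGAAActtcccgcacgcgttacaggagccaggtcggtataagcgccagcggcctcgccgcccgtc
CHAC1: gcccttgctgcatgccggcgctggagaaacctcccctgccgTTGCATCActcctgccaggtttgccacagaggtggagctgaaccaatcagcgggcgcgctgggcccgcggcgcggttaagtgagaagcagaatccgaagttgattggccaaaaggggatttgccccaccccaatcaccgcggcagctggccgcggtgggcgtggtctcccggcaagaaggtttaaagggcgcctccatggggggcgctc

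Antioxidant genes under NFE2L2, the factor freed from KEAP1 by electrophiles and oxidants, had 9 of 30 members lower in DEP and none higher (median -0.17). These 9 are 30% of the list, against 1.36% of all genes tested. HMOX1, haem oxygenase 1, had 49.7 and 48.6 CPM in DEP libraries, against 82.7 and 105 CPM in DPP libraries (-0.94 ± 0.11, adjusted p = 0.00198). SRXN1, sulfiredoxin, had 44.5 and 40.6 CPM in DEP libraries, against 66.5 and 75.5 CPM in DPP libraries (-0.74 ± 0.09, adjusted p = 0.0011), and vehicle libraries held 29.2 and 33.7 CPM. TXNRD1, TXN, GCLM, NQO1, ME1 and OSGIN1 were also called, at -0.67 to -0.33. The count was 5, 4, 9 and 4 without DEP 1, DEP 2, DPP 1 and DPP 2. CYP1B1, a target of the aryl hydrocarbon receptor, had 1.66 and 1.5 CPM in DEP libraries, against 4.19 and 3.95 CPM in DPP libraries (-1.36 ± 0.18, adjusted p = 0.00209). Its vehicle libraries held 4.66 and 4.20 CPM, close to the DPP libraries. NQO1 was the other called gene of 13 in the AHR list. Neither was called without DEP 2.

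The same search was run for the core of the antioxidant response element, TGACNNNGC, on both strands. It was found in 3 of 7 called members with a promoter sequence, in 2 of 14 uncalled members and in 13.2% of all genes in the table. GCLM (chr1:93909431-93909680, - strand) and ME1 (chr6:83431052-83431301, - strand) are printed as 2 of the 3, with the match in capitals.
GCLM: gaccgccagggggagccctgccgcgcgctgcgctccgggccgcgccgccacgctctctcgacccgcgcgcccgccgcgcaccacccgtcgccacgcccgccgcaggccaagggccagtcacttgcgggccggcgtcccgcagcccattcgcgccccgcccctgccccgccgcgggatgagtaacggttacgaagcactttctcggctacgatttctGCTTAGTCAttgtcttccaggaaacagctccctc
ME1: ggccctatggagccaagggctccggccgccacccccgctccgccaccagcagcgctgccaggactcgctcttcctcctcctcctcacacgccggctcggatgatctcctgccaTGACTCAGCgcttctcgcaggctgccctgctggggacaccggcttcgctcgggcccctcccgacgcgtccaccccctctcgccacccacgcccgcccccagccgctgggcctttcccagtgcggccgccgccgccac

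For the cilium genes the half-site of the X-box of RFX factors, GTTGCCNNG, was found on either strand in 4 of 12 called members with a promoter sequence, in 11 of 19 uncalled members and in 5.22% of all genes in the table. PIFO, whose product takes part in the disassembly of the primary cilium, is shown with the match in capitals (chr1:111346372-111346621, + strand), in a window before a start inside the annotated gene. Its expression was 21.4 and 22.9 CPM in DEP libraries, against 16.8 and 13.01 CPM in DPP libraries (0.57 ± 0.13, adjusted p = 0.0443), and the call ended in 5 of 13 alternatives, among them those without DEP 1, DEP 2 and DPP 2, with an adjusted p of up to 0.339.
PIFO: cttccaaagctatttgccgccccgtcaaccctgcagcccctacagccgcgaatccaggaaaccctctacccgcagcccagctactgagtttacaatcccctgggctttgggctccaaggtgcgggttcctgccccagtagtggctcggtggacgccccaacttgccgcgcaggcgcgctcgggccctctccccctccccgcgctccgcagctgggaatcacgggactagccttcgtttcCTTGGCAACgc
The sterol regulatory core TCACNCCAC was found in 0 of 7 called cholesterol genes with a promoter sequence, in 1 of 11 uncalled members and in 1.09% of all genes in the table.

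Hypoxia and glycolysis genes were lower in DEP in 12 of 35 cases (34.3%, against 1.36% of all genes tested). None was higher, and the median was -0.22. SLC2A1, the glucose transporter GLUT1, had 73.7 and 69.3 CPM in DEP libraries, against 114 and 113 CPM in DPP libraries (-0.67 ± 0.06, adjusted p = 0.00061), while vehicle libraries held 71.3 and 75.7 CPM. HK2, a hexokinase, had 29.6 and 29.1 CPM in DEP libraries, against 46.6 and 57.6 CPM in DPP libraries (-0.83 ± 0.10, adjusted p = 0.0011 by edgeR). ADM, the vasodilator peptide adrenomedullin, had 5.49 and 5.12 CPM in DEP libraries, against 11.8 and 16.1 CPM in DPP libraries (-1.39 ± 0.15, adjusted p = 0.00105). For all 3 genes the DPP libraries were the highest of DEP, DPP and vehicle. SLC2A3, GPI, PFKP, PGK1, PKM, LDHA, VEGFA, P4HA1 and PDK1 were the other called members, at -0.60 to -0.28, and the count was 3, 3, 10 and 3 without DEP 1, DEP 2, DPP 1 and DPP 2. None of 46 nuclear oxidative phosphorylation genes was called (median 0.04), nor any of 13 mitochondrially encoded genes (median -0.23), all of which had a negative fold change. With TMM factors these 13 summed to 805 and 849 CPM in DEP libraries, against 849 and 1050 CPM in DPP libraries. DEP 2 and DPP 1 were thus level, and DPP 2 stood apart.

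**Figure D3:**
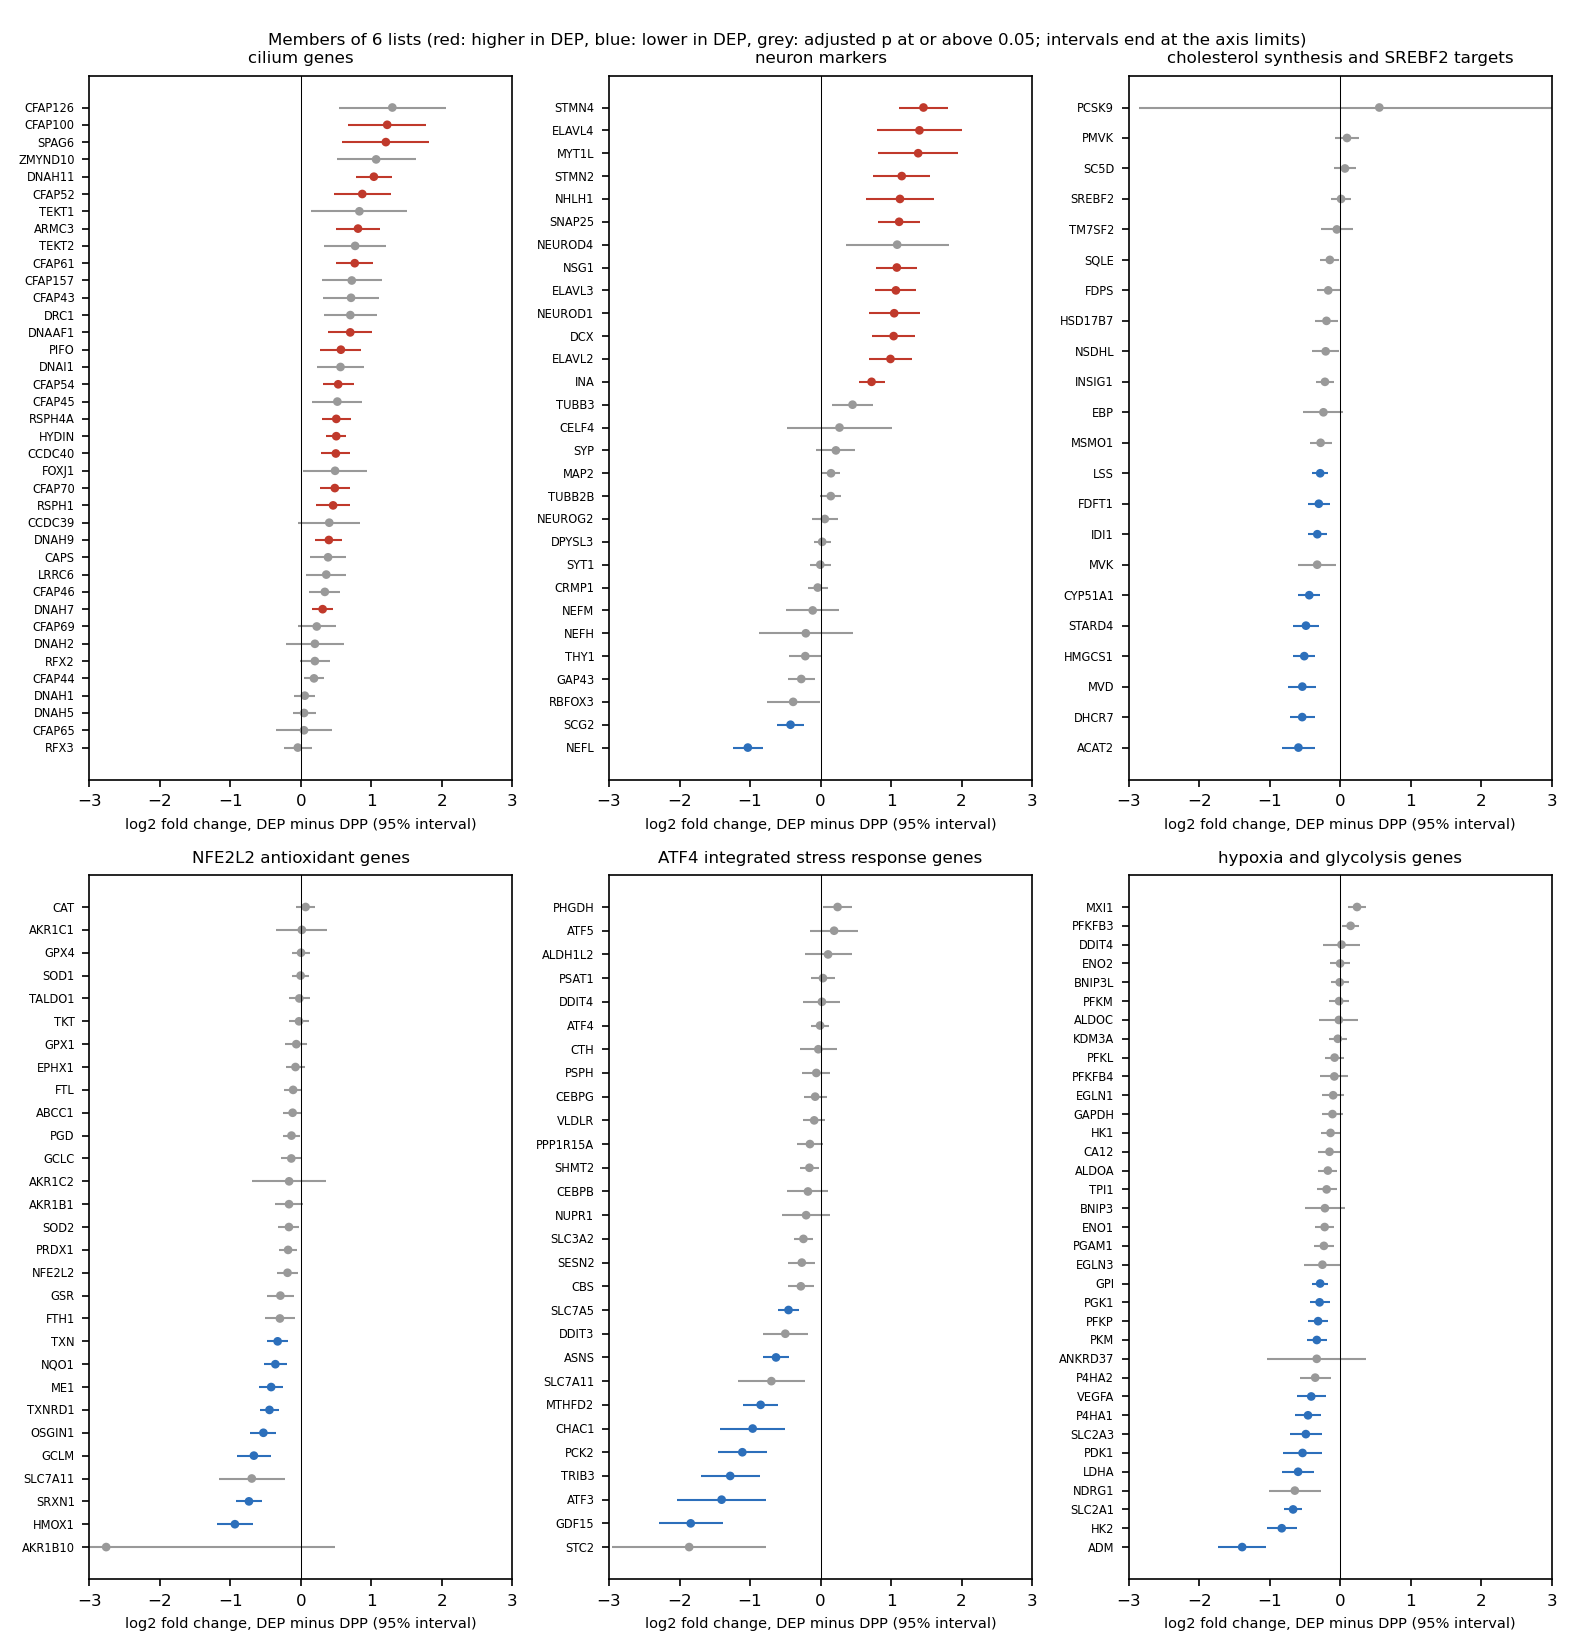
Log2 fold change, DEP minus DPP (point), with its 95% interval (line) for tested members of 6 lists with a count in both groups, sorted by size. Cilium genes lie almost all to the right of 0, neuron markers on both sides with 12 called to the right and 2 to the left, and the called members of the other 4 lists to the left.

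Genes of growth factor signalling were lower in DEP as well. Immediate early genes, which the MAPK cascade and other signals switch on within minutes, had 9 of 31 members lower and none higher, with a median of -0.48. These 9 are 29% of the list, against 1.36% of all genes tested. EGR2, a zinc finger factor of this class, had 7.01 and 6.15 CPM in DEP libraries, against 16.4 and 19.5 CPM in DPP libraries (-1.45 ± 0.15, adjusted p = 0.000879), and FOSL1, an AP-1 subunit, had 3.96 and 3.62 CPM in DEP libraries, against 8.83 and 11.4 CPM in DPP libraries (-1.41 ± 0.18, adjusted p = 0.0016). The feedback genes of FGF, EGFR and MAPK signalling had 8 of 23 lower (34.8%, against 1.36% of all genes tested) and none higher (median -0.26). Among them DUSP4, a phosphatase that switches MAP kinases off, had 3.98 and 3.49 CPM in DEP libraries, against 8.87 and 11.6 CPM in DPP libraries (-1.45 ± 0.18, adjusted p = 0.00143). HBEGF, a ligand of the EGF receptor, had 7.57 and 6.18 CPM in DEP libraries, against 18.01 and 16.6 CPM in DPP libraries (-1.33 ± 0.14, adjusted p = 0.000879), and vehicle libraries held 5.68 and 4.52 CPM. FOSL1, IER3 and DUSP5 stood in both lists, and FOS, FOSL2, JUN, ATF3, KLF6, SPRY4, SPRED2 and PHLDA1 were the remaining called members. The call of PHLDA1 (adjusted p = 0.0475 by edgeR) ended in 10 of 13 alternatives, among them scaling by relative log expression and no filter. Without DEP 1, DEP 2, DPP 1 and DPP 2 the immediate early count was 5, 2, 9 and 3 and the feedback count 4, 3, 7 and 4.

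HMGA2, a chromatin protein of embryonic growth, had the largest difference against DEP among named genes with a count in all 4 libraries, with 0.824 and 0.679 CPM in DEP libraries, against 3.66 and 5.91 CPM in DPP libraries (-2.67 ± 0.26, adjusted p = 0.0008). Vehicle libraries held 0.923 and 0.883 CPM, so that the DEP libraries lay near vehicle and the DPP libraries apart from both. Its relative HMGA1, IGFBP3, IGFBP5, IRS1 and IRS2 were also lower in DEP, 6 of 16 growth and insulin-like factor genes. These 6 are 37.5% of the list, against 1.36% of all genes tested. IGFBP4 was higher (0.78 ± 0.15, adjusted p = 0.0166 by edgeR). Without DEP 1, DEP 2, DPP 1 and DPP 2 the 6 became 1, 1, 7 and 2, and IGFBP4 was called only without DPP 1 among these. RGS4, a brake on G protein signalling, had 12.9 and 11.9 CPM in DEP libraries, against 31.8 and 36.6 CPM in DPP libraries (-1.46 ± 0.16, adjusted p = 0.00106). CHRNA9, a nicotinic receptor subunit, had 3.21 and 4.56 CPM in DEP libraries, against 10.6 and 11.9 CPM in DPP libraries (-1.53 ± 0.21, adjusted p = 0.00268), and SLC12A8, a solute carrier, had 4.13 and 3.55 CPM in DEP libraries, against 11.4 and 11.2 CPM in DPP libraries (-1.56 ± 0.16, adjusted p = 0.000879). SRPX2 and the Wnt inhibitor DKK1 were also among the 12 largest against DEP, at -1.84 and -1.49, and lost their calls without DEP 1, DEP 2 or DPP 2. PTGS2, the inducible cyclooxygenase, had 0 counts in both DEP libraries and 49 and 70 counts in the DPP libraries, at least 41.0-fold lower in DEP against a floor of 3 counts over the group; both vehicle libraries were also at 0, and the call ended without DEP 1, DEP 2 or DPP 2.

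Cell cycle genes had mostly negative fold changes, few of which passed the test. Of 34 tested, 32 had a negative fold change and the median was -0.46, but only 2 were called. These 2 are 5.88% of the list, against 1.36% of all genes tested that were lower in DEP. Both DEP libraries lay below both DPP libraries for 31 of the 34, against 23.8% of all tested genes. CCND1, the G1 cyclin that mitogens induce, had 41.4 and 40.4 CPM in DEP libraries, against 83.6 and 80.4 CPM in DPP libraries (-1.004 ± 0.11, adjusted p = 0.00105). Vehicle libraries held 39.4 and 35.7 CPM. CDKN1A, the p53-induced inhibitor p21, had 157 and 146 CPM in DEP libraries, against 189 and 195 CPM in DPP libraries (-0.34 ± 0.06, adjusted p = 0.0108), so that an activator and an inhibitor of the cycle were both lower in DEP. Its call ended without DEP 2 or DPP 2. The proliferation markers MKI67 and TOP2A had 95% intervals of -1.98 to 0.40 and -1.66 to 0.41, with adjusted p-values of 0.515 and 0.565. In a fit of the 4 libraries alone 11 cell cycle genes were lower in DEP. Of 28 p53 and apoptosis genes, CDKN1A, PMAIP1, GADD45A and TNFRSF10B were lower in DEP and none higher. PMAIP1, the BH3-only death protein NOXA, had 11.7 and 13.2 CPM in DEP libraries, against 24.1 and 22.1 CPM in DPP libraries (-0.89 ± 0.12, adjusted p = 0.00187). The number called was 2, 1, 5 and 1 without DEP 1, DEP 2, DPP 1 and DPP 2.

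Of the progenitor, astrocyte and oligodendrocyte lineage markers 4.76%, 9.52% and 7.69% were called, against 2.93% of all genes tested. Of 21 progenitor markers only TNC, a matrix protein of radial glia, was called (946 and 869.8 CPM in DEP libraries, against 1108 and 1186 CPM in DPP libraries; -0.34 ± 0.07, adjusted p = 0.0234), and its call ended without DEP 1, DEP 2 or DPP 2. SOX2 and NES had 95% intervals of -0.04 to 0.25 and -0.18 to 0.06. Of the 20 uncalled progenitor markers, 5 had a 95% interval above 0 and 1 below it, with PROM1 at 0.09 to 0.77 and SOX1 at 0.19 to 0.80. Among 21 astrocyte markers CD44 was lower and BCAN higher in DEP, and among 13 oligodendrocyte lineage markers SOX8 was higher (43.1 and 43.8 CPM in DEP libraries, against 31.9 and 27.8 CPM in DPP libraries; 0.54 ± 0.09, adjusted p = 0.00823). Of the 19 uncalled astrocyte markers 2 had an interval above 0 and 1 below it, and of the 12 uncalled oligodendrocyte lineage markers 1 and 2. Of the calls in these 3 lists, that of CD44 alone held without DEP 1, DEP 2 or DPP 2. No member was called of 78 ribosomal protein genes (median 0.14), 39 histone genes (median -0.01), 12 SHH pathway genes (median 0.07) or 12 sex steroid genes (median 0.09), and these non-calls do not show that the compounds act alike. Of the 78 ribosomal protein genes 71 had a positive and 7 a negative fold change. Both DEP libraries lay above both DPP libraries for 55 of them, against 24.2% of all tested genes. The cause was not tested.

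**Figure D4:**
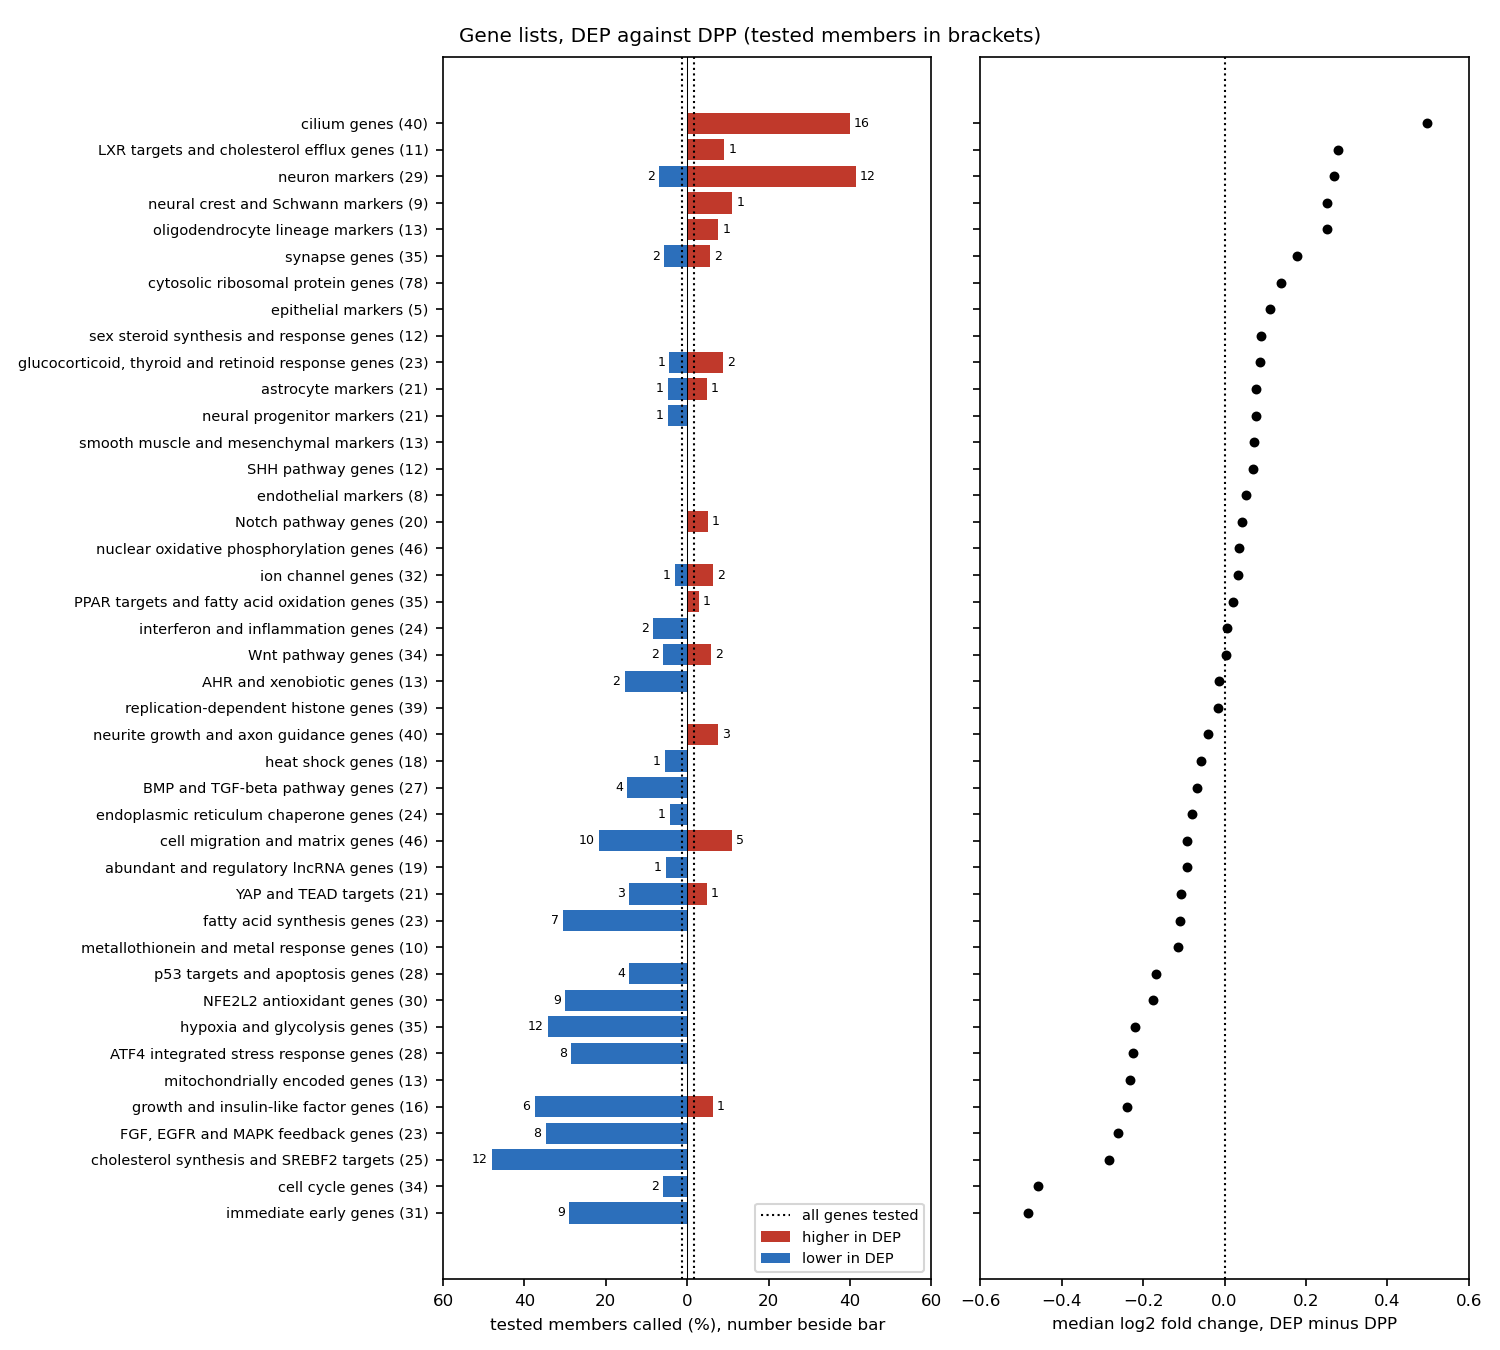
Left, percent of the tested members of each of 42 lists that were higher (red, to the right) or lower (blue, to the left) in DEP, with their number beside the bar; right, the median log2 fold change, DEP minus DPP. Dotted lines give the values over all 19465 genes tested (1.58% higher, 1.36% lower, median 0.0023), and cilium genes and neuron markers lead to the right, cholesterol genes to the left.

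The vehicle comparisons of the most different genes are set side by side. Of the 12 largest differences in favour of DEP, all 12 had negative log2 fold changes against vehicle in both compounds, from -0.91 to -0.25 in DEP and from -2.64 to -1.75 in DPP. In DEP against vehicle only IQSEC3, P2RX3 and SRRM4 of these passed the threshold, with adjusted p-values of 0.0308, 0.0113 and 0.0403 by edgeR. The others were not called in DEP against vehicle. For 11 of the 12 largest against DEP, which are plotted, the DEP values ran from -0.27 to 1.57 and the DPP values from 1.55 to 3.41. HMGA2 and SLC12A8 had DEP values of -0.27 ± 0.28 and -0.01 ± 0.16 (SE), so that 0 lies within 1 standard error. Both comparisons rest on the same vehicle libraries.

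**Figure D5:**
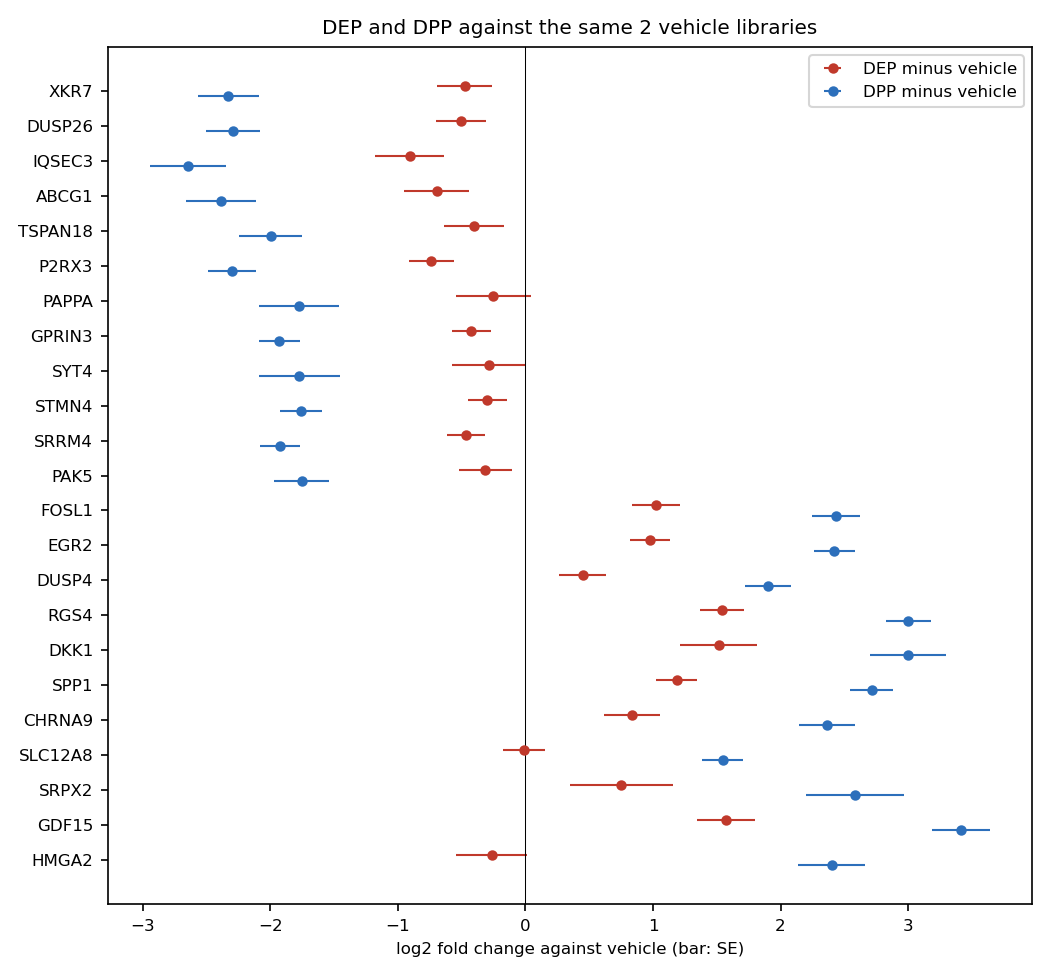
Log2 fold change against vehicle for DEP (red, upper point) and DPP (blue, lower point), with the standard error as a bar, for the 12 largest differences in favour of DEP and 11 of those against it. For the upper 12 genes DPP lies further below 0 than DEP, and for the lower 11 DPP lies above DEP, a direction fixed by how the genes were chosen.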

How the data were processed

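RNA was taken from 10 pools of 6 ReNcell VM neurospheres after 6 days of treatment, and libraries were made with a SureSelect RNA Direct kit, per the labels' protocols. The authors deposited raw read counts per NCBI gene, without normalisation. Per the submitters' processing notes, HISAT2 2.1.0, StringTie 2.1.3b and Trimmomatic 0.38 were used with build GRCh38, besides FastQC and edgeR 4.0.9. The counting step, annotation and strand setting are not stated there.

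Counts of all 10 libraries were fitted with edgeR 4.0.16 (R 4.3.3; filterByExpr, TMM, robust quasi-likelihood, 1 mean per group, 5 residual degrees of freedom), since 2 libraries a group give too little spread alone. The contrast was DEP minus DPP, with Benjamini-Hochberg adjustment over 19465 genes. The standard error is the fold change divided by the root of the F statistic. RefSeq tables matched 44698 of 46427 identifiers and gave gene types and promoters. The X-box half-site was chosen after a longer form of it had been counted. Alternatives used limma 3.58.1, DESeq2 1.42.0, other scalings, filters and samples, and a replicate block. Replicate numbers did not pair libraries: deviations correlated at -0.106 to 0.0867 over 10 pairs of groups.

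The comparison, the 43 gene lists and the tests were chosen with earlier results of these data known. Genes were named by a rule: the 12 largest changes each way with at least 1 CPM and separated libraries, 2 of other gene types each way, and up to 3 members with the smallest p per list. The other genes with values (TUBB3, MAP2, FOXJ1, SREBF2, ATF4, MKI67, TOP2A, SOX2, PROM1, NES, PIFO, BSN, DCX, DHCR7, SCG2, IGFBP4 and those of the closing section) were chosen after their values were seen. Some called genes are not reported here.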

Additional observations from a re-analysis of the deposited data

How the results depend on the processing

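Against 307 genes higher and 264 lower in DEP, no filter, a filter of 1 CPM in 2 libraries, scaling by relative log expression or by library size, limma-voom, the 8 treated libraries without vehicle and the replicate block each gave counts within 1.5 times. DESeq2 called 594 and 538. A fit of the 4 libraries alone called 340 and 435, and a 2-fold minimum left 97 and 40. Leaving out 1 library of DEP or DPP gave 53 to 469 higher and 38 to 303 lower; a lone library is then assumed to vary like the other groups. With the replicate number as a block the counts were 270 and 259; the numbers are shared by label only (correlation of DEP and DPP deviations -0.0341). No called gene that the text names changed direction. Among uncalled ones, SREBF2 was 0.0772 and -0.0474 without DPP 1 and DPP 2 and ATF4 0.0207 and -0.0335 without DEP 1 and DEP 2; the cause was not tested. Of 98 genes named by the rule 87 were called. Of these, 34 kept the call in all 13 alternatives and 53 lost it in at least 1, in 14 cases with all 4 libraries kept. The unadjusted p was under 0.05 for 3091 genes. With 2 libraries a group, an exact test of 1 gene cannot pass the threshold. Differences under 0.26 on the log2 scale, the median reach of the unadjusted 95% interval, were mostly not detectable. The adjusted threshold asks for more than that, and larger differences could be missed. TUBB3 at 0.45 ± 0.13 and SOX1 at 0.50 ± 0.14 were not called.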

Other observations

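Genes outside the lists and the naming rule, chosen after their values were seen, added to both directions. EBF2, a transcription factor of differentiating neurons, had the smallest adjusted p of those looked at, with 27.8 and 29.9 CPM in DEP libraries, against 12.7 and 12.1 CPM in DPP libraries (1.22 ± 0.08, adjusted p = 9.36e-05 by edgeR). Its relative EBF3 had 53.1 and 59.8 CPM in DEP libraries, against 27.8 and 20.3 CPM in DPP libraries (1.23 ± 0.12, adjusted p = 0.001). Of the neuronal zinc finger and helix-loop-helix factors, MYT1 differed by 1.43 ± 0.18, ST18 by 1.27 ± 0.13 and NHLH2 by 1.36 ± 0.16 on the log2 scale, all higher in DEP. CALB2, the calcium-binding protein calretinin, had 4.41 and 4.47 CPM in DEP libraries, against 1.70 and 1.98 CPM in DPP libraries (1.27 ± 0.15, adjusted p = 0.0011). For these genes, as for each called gene, no DEP library overlapped a DPP library, and the calls held in each alternative.

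Genes lower in DEP, chosen in the same way and not counted as a group, included carriers of nutrients. SLC1A5, a glutamine transporter, had 16.4 and 16.4 CPM in DEP libraries, against 32.9 and 38.0 CPM in DPP libraries (-1.11 ± 0.11, adjusted p = 0.000879). SLC7A1, a carrier of arginine and lysine, had 64.4 and 61.5 CPM in DEP libraries, against 91.5 and 99.3 CPM in DPP libraries (-0.60 ± 0.07, adjusted p = 0.00106), and SLC38A2, a carrier of small neutral amino acids, had 89.8 and 94.4 CPM in DEP libraries, against 126 and 142 CPM in DPP libraries (-0.54 ± 0.07, adjusted p = 0.00145). TFRC, the transferrin receptor, had 182 and 173 CPM in DEP libraries, against 252 and 290.0 CPM in DPP libraries (-0.61 ± 0.08, adjusted p = 0.00206), with an adjusted p of 0.056 without DEP 2. CDKN2B, an inhibitor of the kinases that cyclin D activates, was lower in DEP together with CCND1, with 3.99 and 4.32 CPM in DEP libraries, against 9.70 and 12.02 CPM in DPP libraries (-1.39 ± 0.15, adjusted p = 0.000879). BDNF, a neurotrophin, had 4.13 and 4.29 CPM in DEP libraries, against 8.18 and 7.01 CPM in DPP libraries (-0.85 ± 0.14, adjusted p = 0.00872), and its call was lost without DEP 1 or DEP 2.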
